A study of Rattus norvegicus with 9 samples.

Results

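The miR-30 family is a group of microRNAs, short RNAs of 22 or 23 bases, and was examined here in striatum of rats (Rattus norvegicus) dosed with manganese. Members were taken by name from the deposited count table: the 10 listed entries, 5 of the 5p arm (rno-miR-30a-5p, rno-miR-30b-5p, rno-miR-30c-5p, rno-miR-30d-5p and rno-miR-30e-5p) and 5 of the 3p arm (rno-miR-30a-3p, rno-miR-30c-1-3p, rno-miR-30c-2-3p, rno-miR-30d-3p and rno-miR-30e-3p). The prefix rno, for rat, is left off in what follows. All 10 were present among the 1759 small RNA entries of each library (764 miRNAs, 585 piRNAs and 410 tRNA genes), and all 10 passed the filter on low counts that left 1113 entries. Rats in the MMT group received methylcyclopentadienyl manganese tricarbonyl (a fuel additive) at 4 mg/kg, about 1 mg of manganese per kg, dissolved in corn oil. Rats in the MnCl2 group, the study's positive control, received MnCl2·4H2O at 200 mg/kg in physiological saline at 10 ml/kg, so that compound and vehicle cannot be told apart in that group. Control rats received corn oil alone at 1 ml/kg. All were dosed once a day on 6 days a week for 8 weeks, by the intragastric route. Each group had 3 libraries, from a study of 18 rats (9 male and 9 female, 8 weeks old at the start). Neither the sex of a library's rats nor how many were pooled is stated, so the tests weigh differences against a spread between libraries that may be technical.

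A miRNA hairpin is cut into a 5p and a 3p arm, and the arm that is retained by an Argonaute protein pairs with target mRNAs mainly through its seed, bases 2 to 8. In the miR-30 family the 5p arm is the usual guide strand, while the miR-30a hairpin is also known as the backbone of many artificial hairpin RNAs used for gene knockdown. In human and mouse cells miR-30 5p strands repress, among other mRNAs, those of the autophagy protein Beclin 1 and of brain-derived neurotrophic factor, a growth factor that striatal neurons receive from cortex. Target mRNAs were not measured in these libraries.

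The sequences below show what the members share and how little separates some of them. They are RefSeq mature sequences (GRCr8), matched by name for 6 of the 10 members and the same as the deposited ones, written 5′ to 3′ with the seed in capitals. The first 4 carry the common seed, miR-384-5p being a non-member, and the next 3 are 3p arms.
miR-30a-5p: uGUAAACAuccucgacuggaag
miR-30e-5p: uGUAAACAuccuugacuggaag
miR-30c-5p: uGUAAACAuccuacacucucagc
miR-384-5p: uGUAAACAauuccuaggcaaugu
miR-30a-3p: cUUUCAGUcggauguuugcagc
miR-30c-1-3p: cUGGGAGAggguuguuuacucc
miR-30c-2-3p: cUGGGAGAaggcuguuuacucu

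All 5 of the 5p members shared the seed and their first 11 bases, and miR-384-5p was the 1 other listed miRNA with that seed. miR-30e-5p differed from miR-30a-5p by a single substitution, C13U, counted from the 5′ end of miR-30a-5p. miR-30d-5p also differed from miR-30a-5p at 1 base and from miR-30e-5p at 2, whereas miR-30b-5p and miR-30c-5p differed from these 3 at 5 to 8 bases and from each other at 4. The 3p members fell into 2 seed groups, one of miR-30a-3p, miR-30d-3p and miR-30e-3p and one of miR-30c-1-3p and miR-30c-2-3p. miR-30a-3p and miR-30e-3p differed at 1 base. miR-30b-5p and miR-30c-5p share a run of at least 16 bases, which shorter reads may not go beyond. How many mismatches read alignment allowed is not given. The division of reads between miR-30a, miR-30d and miR-30e, and between miR-30b-5p and miR-30c-5p, is therefore uncertain.

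The hairpins lie in pairs. By their RefSeq matches, miR-30a-5p (chr9:33233946-33233967, plus strand, GRCr8) is followed on the same strand by a copy of miR-30c-5p (chr9:33253695-33253717). The second copy of miR-30c-5p (chr5:139634505-139634527, minus strand) lies beside miR-30e-5p (chr5:139637504-139637525, minus strand), and the gene table shows both hairpins within Nfyc, which encodes a subunit of the CCAAT-binding factor NF-Y. The hairpins of miR-30b and miR-30d neighbour each other within a long uncharacterised gene. Reads of miR-30c-5p cannot be assigned to either of its 2 hairpins, while the 3p arms miR-30c-1-3p and miR-30c-2-3p can.

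The 9 libraries held 583045 to 2012769 counts. By group they held 730044 to 1543987 in MMT, 753383 to 989556 in MnCl2 and 583045 to 2012769 in control libraries, so the deepest and the shallowest were both controls. Markers of neurons were abundant in every library (7 of 7 listed, summing to 56424 to 74571 CPM in MMT, 58068 to 72529 in MnCl2 and 54631 to 74834 in control libraries). Markers of choroid plexus, the secretory lining of the ventricles, varied most between libraries (3 of 3 listed, 325 to 2589 CPM in MMT, 301 to 1530 in MnCl2 and 423 to 1383 in control libraries). Liver miR-122-5p reached at most 18.8 CPM in any library.

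The miR-30 family was a large and even part of the striatal miRNAs. Its 10 members held 5.04% ± 0.162 of miRNA counts in MMT, 4.81% ± 0.101 in MnCl2 and 4.98% ± 0.267 in control libraries (SD, n = 3 each), with a range of 4.68% to 5.22% over the 9 libraries. Levels below are CPM, the reads of an entry scaled to the size of its library with edgeR's TMM factors and not divided by length, since the members are all 22 or 23 bases long. The summed 5p arms stood at 29598 ± 5412 CPM in MMT, 27695 ± 3155 in MnCl2 and 28025 ± 6474 in control libraries (SD, n = 3 each). On the log2 scale the ratio of means was 0.079 for MMT against control, -0.017 for MnCl2 against control and 0.096 for MMT against MnCl2. With miRNA entries scaled alone, the values became -0.066, -0.30 and 0.23 in the same order. With 1 library left out they ran from -0.067 to 0.27 for MMT against control, from -0.24 to 0.17 for MnCl2 against control and from -0.035 to 0.30 for MMT against MnCl2, so that none kept 1 sign. MMT against control turned negative without control 3 (-0.067) or MMT 3 (-0.058), MnCl2 against control positive without control 1 (0.17) or MnCl2 2 (0.073), and MMT against MnCl2 negative without MMT 3 (-0.035). In bulk tissue, fewer cells of a type and less RNA per cell cannot be told apart.

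Within the family, the 5p levels in CPM descended from miR-30c-5p through miR-30e-5p, miR-30a-5p and miR-30b-5p to miR-30d-5p, in every one of the 9 libraries. Mean levels over the 9 libraries were 9609.9 ± 1704 CPM for miR-30c-5p, 8407 ± 1304 for miR-30e-5p, 6357 ± 1129 for miR-30a-5p, 2959 ± 573 for miR-30b-5p and 1106 ± 325 for miR-30d-5p (SD, n = 9). By mean level they ranked 19, 24, 28, 44 and 73 among the miRNAs tested. The means of miR-30c-5p and miR-30e-5p differed by less than 1 SD over libraries, but within a library miR-30c-5p was the higher in 9 of 9. Ligation and amplification can differ between sequences, so the order is one of sequenced reads.

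The 3p arms split in the same CPM scale into an abundant and a scarce set. miR-30e-3p averaged 1179 ± 163 CPM and miR-30a-3p 665 ± 99.96 (SD, n = 9). miR-30c-2-3p averaged 44.7 ± 6.94, miR-30d-3p 37.9 ± 6.93 and miR-30c-1-3p 28.2 ± 11.1. These last 3 rest on 11 to 71 counts per library. By library, miR-30a-3p was at 714, 566 and 693 CPM in MMT, 713, 536 and 779 in MnCl2 and 804, 639.8 and 542 in control libraries. The 3 groups overlapped almost fully. miR-30c-2-3p was at 48.6, 40.2 and 39.1 CPM in MMT, 47, 43 and 48.3 in MnCl2 and 39.5, 37.2 and 59.3 in control libraries. miR-30d-3p was at 39.2, 40.2 and 27.7 CPM in MMT, 44.2, 45 and 38.8 in MnCl2 and 28.4, 32.3 and 45.6 in control libraries. The highest level of both was in control 3, the shallowest library, and the groups overlapped. miR-30c-1-3p was at 12.8, 44 and 19.2 CPM in MMT, 15.2, 34.2 and 38.8 in MnCl2 and 29.5, 23.5 and 36.5 in control libraries. Its spread over the 9 libraries, 39.2% of the mean, was the widest of the 10 members.

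**Figure D1:**
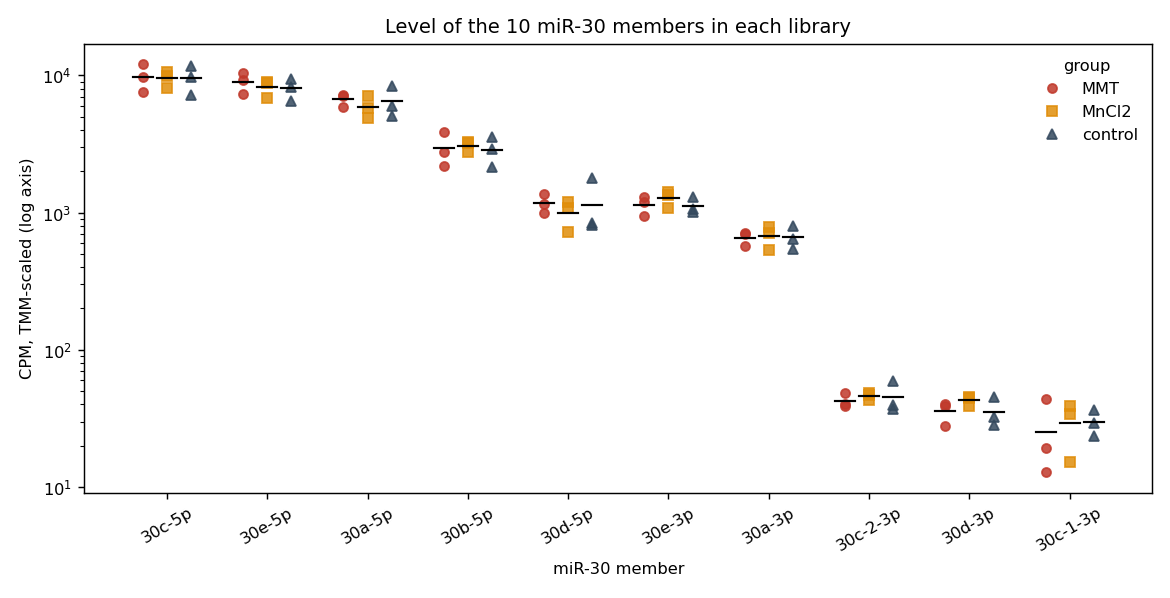
Level of each miR-30 member in TMM-scaled CPM (log axis), with 1 point per library and a bar at the group mean for MMT, MnCl2 and control. The 3 groups overlap for all 10 members, and the scarce 3p arms lie below 60 CPM in every library.

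The comparison of MMT with control asks whether the organic compound was accompanied by a change of the family in striatum. The lowest p belonged to miR-30e-5p, at 9266, 7315 and 10385 CPM in MMT libraries, against 9392, 8216 and 6489.8 CPM in control libraries. The MMT values reached higher, but 1 of them lay below 2 of the control values. The log2 fold change was 0.16 (SE 0.20, edgeR adjusted p = 1, n = 3 each).

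miR-30c-5p, the most abundant member, stood at 9712, 7558 and 12012 CPM in MMT libraries and at 11657, 9724 and 7244 CPM in control libraries. Both groups spanned nearly the same range, with a log2 fold change of 0.033 (SE 0.22). miR-30a-5p was at 7189.8, 5889.8 and 7095 CPM in MMT libraries, against 8347, 5943 and 5054 in control libraries. All 3 MMT values fell between the lowest and the highest control value (log2 fold change 0.060, SE 0.21). For miR-30b-5p the values were 2778, 2186 and 3875 CPM in MMT and 3524, 2897 and 2165 CPM in control libraries, which overlapped over most of their range (log2 fold change 0.042, SE 0.23). miR-30d-5p was at 1163, 999.6 and 1369 CPM in MMT libraries, against 1774, 839 and 811 CPM in control libraries. Control 1 stood apart from the other two control libraries there, and the MMT values lay between (log2 fold change 0.041, SE 0.29).

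In all, edgeR's quasi-likelihood test called 0 of the 10 members at an adjusted p under 0.05 (background 0%), 0 had an unadjusted p under 0.05 (background 2.16%), and DESeq2 called 0 and gave 0 at that unadjusted level. In 0 of 10 members were the groups free of overlap in CPM (background 4.58%). Fold changes on the log2 scale were above 0 in 7 of 10 members (background 53.1%), with a median of 0.029 over the members and 0.036 over 615 miRNAs. With miRNA entries scaled alone, 1 of 10 was above 0, with medians of -0.11 over the members and -0.10 over all miRNAs. Approximate 95% intervals of the 5p fold changes lay between -0.54 and 0.62. The widest interval was that of miR-30c-1-3p, whose lower end was -1.25, so changes of moderate size were not detectable at this depth and number of libraries.

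The comparison of MnCl2 with control asks the same of the positive control. Its lowest p belonged to miR-30e-3p, a 3p arm, at 1345, 1082 and 1404 CPM in MnCl2 libraries, against 1292, 1061 and 1006 CPM in control libraries. The ranges overlapped through MnCl2 2, which lay below control 1 (log2 fold change 0.19 with an SE of 0.16, adjusted p = 0.843 by edgeR, n = 3 each). The guide arm of the same hairpin, miR-30e-5p, was at 8859, 6799.8 and 8942 CPM in MnCl2 libraries, within the control range of 6489.8 to 9392 CPM (log2 fold change 0.029, SE 0.20).

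miR-30d-5p was at 719, 1087 and 1192 CPM in MnCl2 libraries, the lowest level of this member in any library being that of MnCl2 1, against 811 to 1774 CPM in control libraries (log2 fold change -0.20, SE 0.30). miR-30a-5p was at 5744, 4914 and 7038 CPM in MnCl2 libraries, against 5054 to 8347 CPM in control libraries (log2 fold change -0.13, SE 0.21). For both members the groups overlapped. miR-30b-5p (3280.5, 3187 and 2742 CPM in MnCl2 libraries) and miR-30c-5p (10625, 8079 and 9877 CPM) also stayed within their control ranges, with log2 fold changes of 0.100 and -0.0027.

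Of the 10 members, edgeR called 0 (background 0%), 0 had an unadjusted p under 0.05 (background 4.58%), DESeq2 called 0 with 0 at that unadjusted level, and 0 had groups free of overlap in CPM (background 9.7%). The members' median log2 fold change was 0.028, against 0.23 over 615 miRNAs, and 7 of 10 were above 0 (background 57.3%). That split rested on the scaling: with miRNA entries scaled alone 1 of 10 was above 0 and the members' median was -0.25, while the median of all miRNAs moved to -0.05.

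MMT and MnCl2 were also set against each other. These values share the libraries of the 2 comparisons above. The lowest p was again that of miR-30e-3p, at 1287, 941 and 1192 CPM in MMT libraries, against 1345, 1082 and 1404 CPM in MnCl2 libraries (log2 fold change -0.16 with an SE of 0.16, adjusted p = 0.981 by edgeR, n = 3 each). Again the groups overlapped. The 5p members had log2 fold changes of 0.24 for miR-30d-5p, 0.19 for miR-30a-5p, 0.13 for miR-30e-5p, 0.035 for miR-30c-5p and -0.058 for miR-30b-5p. edgeR called 0 of 10 members (background 0%), 0 had an unadjusted p under 0.05 (background 1.98%), DESeq2 called 0 with 0 at that level, and 0 had groups free of overlap (background 9.07%). Of the 10 log2 fold changes 4 were above 0 (background 41.9%), or 7 with miRNA entries scaled alone, and the members' median was -0.048, or 0.086 under that scaling. The median over all miRNAs was -0.19, or -0.058 with miRNAs scaled alone.

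**Figure D2:**
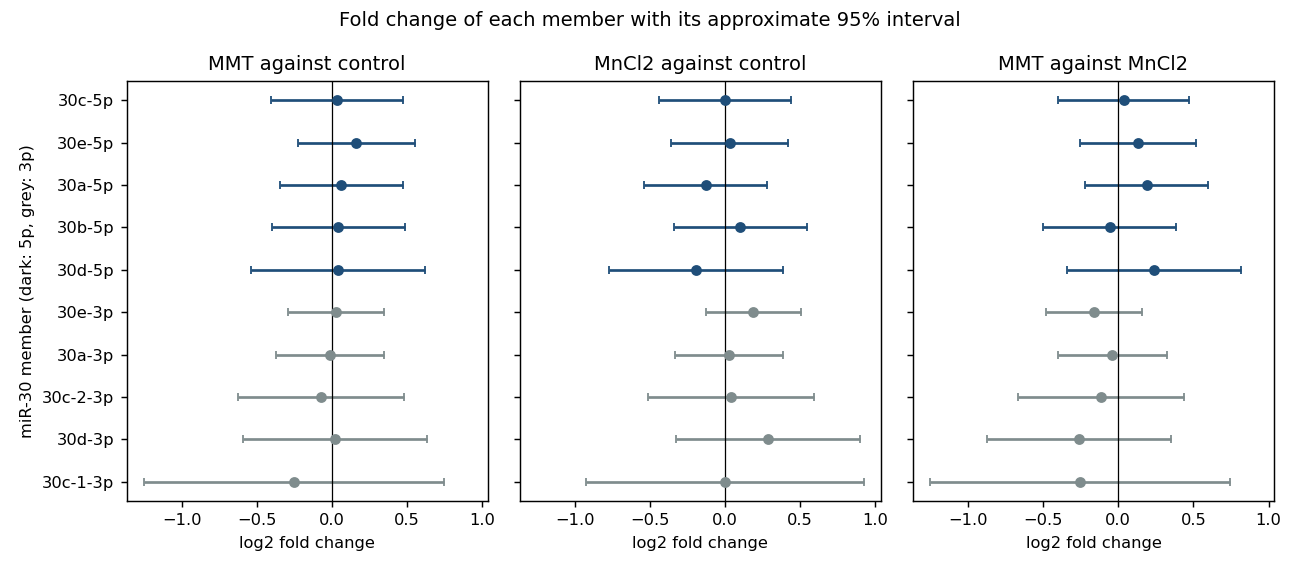
Log2 fold change of each miR-30 member in the 3 comparisons, with bars for the approximate 95% interval of the edgeR fit over 1113 entries. Every interval spans 0, and the scarce miR-30c-1-3p has the widest.

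TMM-scaled levels of the 5p members moved with the total count of the library. In a fit with the group and the log2 total count as terms, all 5 of the 5p members had a positive coefficient at an adjusted p under 0.05 (edgeR, adjusted over 1113 entries; background 8.45% called above 0 and 32.2% in either direction). miR-30d-5p was 54.5% higher per doubling of the total (coefficient 0.63, SE 0.12, edgeR adjusted p = 0.0013) and miR-30b-5p 36% higher (0.44, SE 0.11, edgeR adjusted p = 0.00654). miR-30c-5p was 32.2% higher per doubling, miR-30a-5p 29.6% and miR-30e-5p 24.7%, with edgeR adjusted p-values of 0.0165, 0.0158 and 0.0432.

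From the shallowest to the deepest library, control 3, MMT 2, MnCl2 1, MnCl2 2, MnCl2 3, control 2, MMT 1, MMT 3 and control 1, the summed 5p arms stood at 21764, 23949, 29227, 24067, 29790.1, 27619.6, 30109, 34736 and 34693 CPM. The 2 deepest libraries thus held the 2 highest sums and the 2 shallowest the lowest. MMT and control libraries lay on both sides of the middle of that order, and the 3 MnCl2 libraries at or below it.

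None of the 5 3p members was called in this fit, though miR-30a-3p and miR-30e-3p were with RLE scaling or without a filter. miR-30a-3p (coefficient 0.30, edgeR adjusted p = 0.0517) and miR-30e-3p (0.24, 0.0922) were positive, and the scarce miR-30c-1-3p (-0.34, 0.426), miR-30c-2-3p (-0.21, 0.42) and miR-30d-3p (-0.38, 0.164) were negative. This order by abundance was not particular to the family: of 74 miRNAs above 1000 CPM, 74 had a positive coefficient, 34 were called higher (45.9%) and the median was 0.30, while of 215 at 20 CPM or less 116 were called lower. miR-384-5p, which shares the seed, was 42.4% higher per doubling (coefficient 0.51, SE 0.11, edgeR adjusted p = 0.00172).

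These calls rested on few libraries. Without control 1, the deepest library, edgeR called 0 of 10 members (4 had an unadjusted p under 0.05, and 4.37% of all entries were called), although the 5p coefficients still lay between 0.31 and 0.57. Without control 3, the shallowest, 2 were called, and with counts scaled by the total alone 1 was called, with 5p coefficients of 0.13 to 0.43. The TMM factor was 1.13 in control 3 and 0.893 in control 1, which raises the scaled levels of the deeper library. As a share of miRNA counts the 10 members held 4.68% in control 3 and 5.19% in control 1. With miRNA entries scaled alone 5 were called, with 5p coefficients of 0.34 to 0.64.

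**Figure D3:**
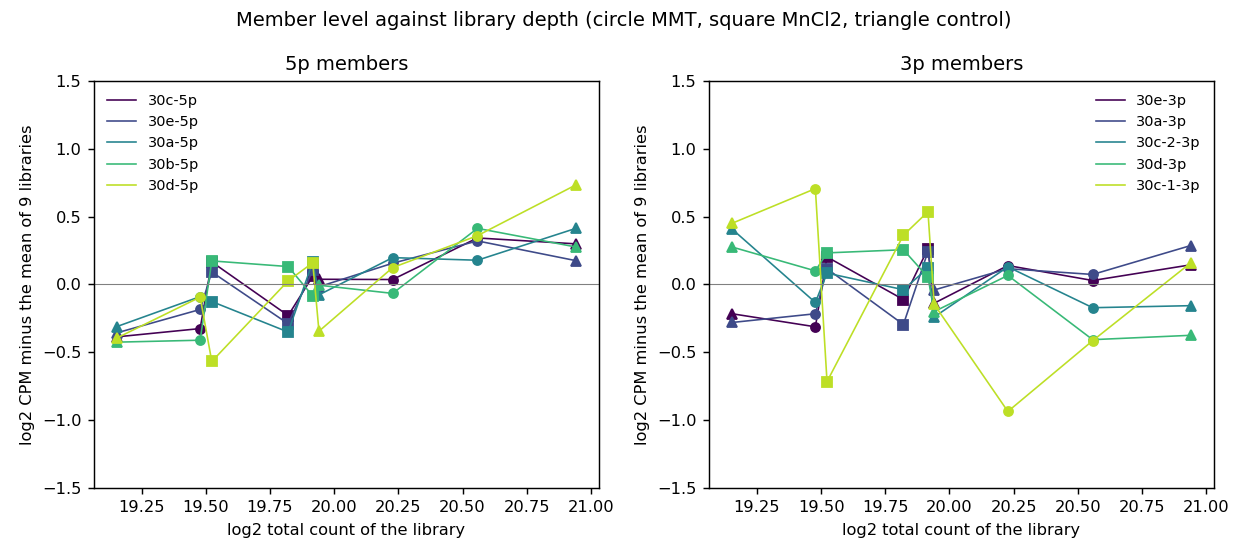
Log2 CPM of each member, minus its mean over the 9 libraries, against the log2 total count of the library, for 5p members on the left and 3p members on the right; lines join the libraries in order of depth and symbols mark the groups. The 5p members lie below 0 in control 3, the shallowest library, and above 0 in MMT 3 and control 1, the deepest, while scarce 3p members scatter.

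Shares within a library need no scaling between libraries. Of the summed 5p counts, miR-30c-5p made up 32.8% ± 1.58 in MMT, 34.4% ± 1.74 in MnCl2 and 34% ± 1.03 in control libraries, and miR-30e-5p 30.4% ± 0.454, 29.5% ± 1.11 and 28.9% ± 1.57 (SD, n = 3 each). miR-30a-5p made up 23% ± 2.23 in MMT, 21.2% ± 2.11 in MnCl2 and 22.9% ± 1.29 in control libraries. miR-30b-5p made up 9.84% ± 1.14, 11.2% ± 2.02 and 10.2% ± 0.273 in the same order, and miR-30d-5p 3.99% ± 0.162, 3.66% ± 1.07 and 3.96% ± 1.06. Of 15 differences in share, over 5 members and 3 comparisons, 2 were larger than the pooled SD of their groups, and both were of miR-30e-5p. Its share was 30.8%, 30.5% and 29.9% in MMT libraries, against 27.1%, 29.7% and 29.8% in control libraries. All 3 MMT values lay above all 3 control values, the 1 pair of groups of the 15 that did not overlap, with a difference of 1.53 percentage points against a pooled SD of 1.15. For shares no background was taken. In CPM, another measure, 4.58% of all entries were free of overlap for MMT against control. The background was 9.7% for MnCl2 against control and 9.07% for MMT against MnCl2. The nearest shares of miR-30e-5p lay within counting error of each other: 29.9% in MMT 3 (29.5% to 30.3%) and 29.8% in control 3 (29.1% to 30.6%). Without control 1 the difference was 0.623 points, and it was given no test, having been singled out after its values were seen. MMT against MnCl2 differed by 0.88 points for this member, against a pooled SD of 0.849, with overlap.

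The extremes belonged to single libraries. The share of miR-30d-5p ran from 2.46% in MnCl2 1 (95% Clopper-Pearson interval 2.25% to 2.68%) to 5.11% in control 1 (4.94% to 5.29%), and that of miR-30b-5p from 9.13% in MMT 2 (8.72% to 9.55%) to 13.2% in MnCl2 2 (12.8% to 13.7%). These intervals cover counting error only, as sequencing reads may include copies made by PCR.

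**Figure D4:**
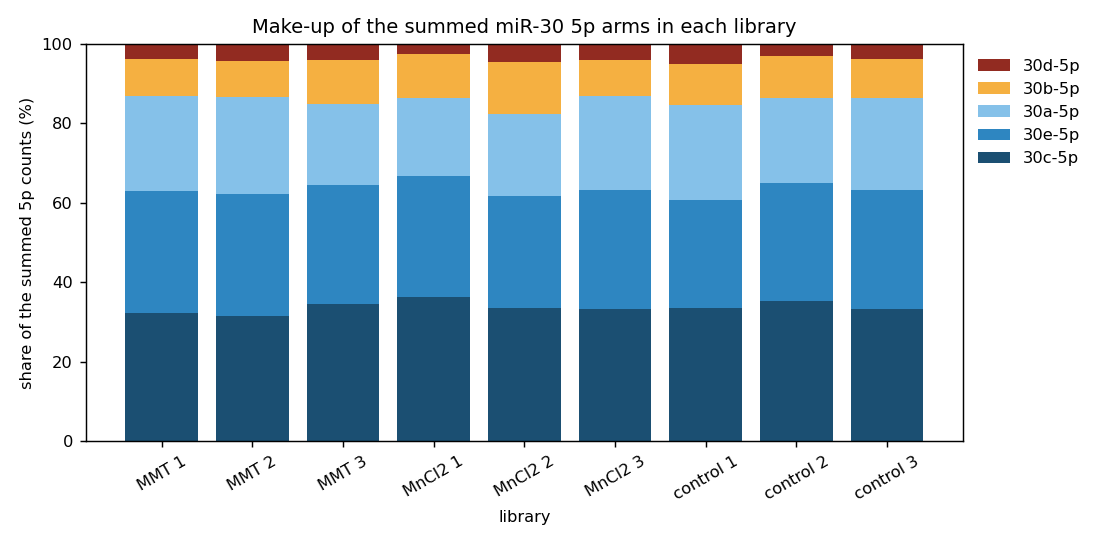
Share of each 5p member in the summed 5p counts of each library, as stacked bars in percent for the MMT, MnCl2 and control libraries. miR-30c-5p and miR-30e-5p together hold over 60% everywhere, and the thin top band of miR-30d-5p is narrowest in MnCl2 1 and widest in control 1.

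Ratios between pairs of 5p members showed which moved together. The ratio of miR-30c-5p to miR-30e-5p was the most constant of 10 pairs, at 1.03 to 1.24 over the 9 libraries (SD of its log2 0.0903, against 0.0225 from counting error). It averaged 1.08 ± 0.0674 in MMT, 1.16 ± 0.0518 in MnCl2 and 1.18 ± 0.0625 in control libraries (SD, n = 3 each). The ratio of miR-30b-5p to miR-30d-5p, whose hairpins neighbour each other, was the most variable, with an SD of its log2 of 0.369 against 0.0547 from counting error. Other ratios with miR-30d-5p varied nearly as much, at 0.356 with miR-30c-5p and 0.349 with miR-30e-5p, and that with miR-30a-5p less, at 0.265. miR-30d-5p itself had the widest spread of the 5p members over the 9 libraries, 29.4% of its mean CPM.

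The ratio of miR-30b-5p to miR-30d-5p was 2.39, 2.19 and 2.83 in MMT, 4.56, 2.93 and 2.30 in MnCl2 and 1.99, 3.45 and 2.67 in control libraries. The groups overlapped, and the highest value was in MnCl2 1 and the lowest in control 1. The choroid plexus miRNA miR-204-5p stood at 238, 201 and 1922 CPM in these MMT libraries, 1146, 224 and 367 in the MnCl2 libraries and 348, 1031 and 709 in the control libraries. The 2 highest ratios were in libraries with over 1000 CPM of miR-204-5p, and the third such library, MMT 3, had a ratio of 2.83. MnCl2 2, with 224 CPM of miR-204-5p, had a higher ratio than MMT 3, at 2.93. The listed marker miR-448-3p was also highest in the libraries with over 1000 CPM of miR-204-5p (359 CPM in MnCl2 1, 334 in control 2 and 654 in MMT 3). The listed marker miR-211-5p was not, at 26.2, 18.6 and 13.5 CPM in the same order, within a range of 7.79 to 27.3 CPM over the libraries. The part of choroid plexus RNA in the ratio was not tested.

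The balance of the arms, 5p over 3p within a library, differed widely between hairpins. The 5p arm exceeded the 3p arm 6.28 to 8.71 times for miR-30e and 8.05 to 10.4 times for miR-30a over the 9 libraries. It did so 16 to 61.9 times for miR-30d, 74.9 to 242 times for miR-30b (with miR-30b-3p, which is no listed member) and 75 to 205 times for miR-30c, taken against the sum of its 2 3p arms. In miR-384 the 3p arm was the more abundant, at a 5p to 3p ratio of 0.314 to 0.594. Of 189 hairpins with both arms past the filter, 105 had the higher level in the 5p arm.

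For miR-30a the 5p to 3p ratio was 10.1, 10.4 and 10.2 in MMT libraries, 8.05, 9.16 and 9.03 in MnCl2 libraries and 10.4, 9.28 and 9.32 in control libraries. All 3 MnCl2 libraries lay below all control and all MMT libraries, while MMT and control overlapped. The gap to control was narrow: the highest MnCl2 value had a 95% counting interval of 8.39 to 10.01, which holds the lowest control value. For miR-30e the ratio was 7.2, 7.77 and 8.71 in MMT, 6.58, 6.28 and 6.37 in MnCl2 and 7.27, 7.74 and 6.45 in control libraries. Here MMT and MnCl2 did not overlap, and control overlapped with both.

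Counted over the 5 miR-30 hairpins, the groups were free of overlap in 0 for MMT against control (background 3.7% of hairpins), in 1 for MnCl2 against control (background 8.99%) and in 2 for MMT against MnCl2 (background 6.88%). Both hairpins concerned, miR-30a and miR-30e, have an abundant 3p arm. Of 8 hairpins whose scarcer arm was at least as abundant as miR-30a-3p, the groups were free of overlap in 1 for MMT against control. They were so in 3 for MnCl2 against control and in 2 for MMT against MnCl2, and of the 105 with the higher 5p arm in 5, 14 and 9. The 8 include miR-30a and miR-30e themselves, which are the 2 for MMT against MnCl2. For MnCl2 against control, miR-30a is 1 of the 3. The 105, and the 189 behind the percentages, include miR-30a, miR-30b, miR-30d and miR-30e, so no background here is free of the family. The mean log2 ratio of MnCl2 lay below that of control in 5 of 5 hairpins, with a median difference of -0.15, though that of miR-30c was only -0.0071. Without control 1, 3 of 5 did so, miR-30c standing at 0.20 and miR-30d at 0.096, and without control 2, MnCl2 2 or MnCl2 3, 4 of 5. Among the 105 hairpins with the higher 5p arm it did so in 67.6%, with a median difference of -0.22. MMT lay above control in 5 of 5, with a median difference of 0.14, where 51 of the 105 hairpins were positive. That count was 2 of 5 without MMT 3 (miR-30b -0.30, miR-30c -0.092 and miR-30d -0.18), 3 of 5 without control 3 and 4 of 5 without control 2. For miR-30a and miR-30e the sign of each of the 3 differences held with any 1 library left out. Where the groups did not overlap, leaving out a library could not have changed it. That was so for miR-30a in MnCl2 against control, and for both hairpins in MMT against MnCl2. The 5 hairpins share their libraries and were given no test.

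**Figure D5:**
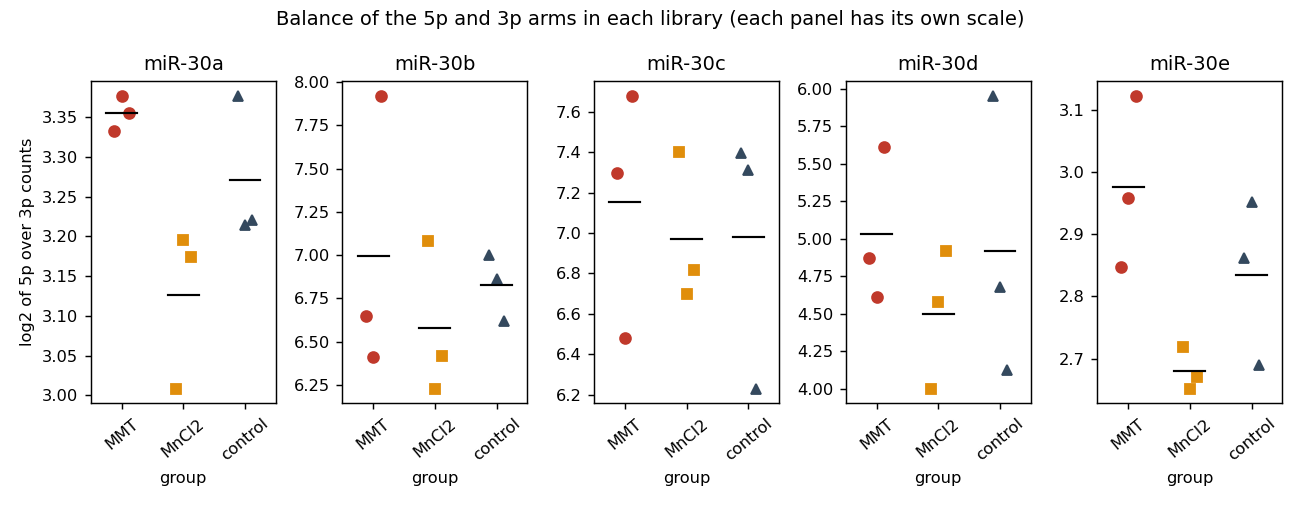
Log2 of 5p over 3p counts for the 5 miR-30 hairpins, 1 point per library with a bar at the group mean, for MMT, MnCl2 and control (each panel has its own scale). In miR-30a the MnCl2 libraries, with 5p to 3p ratios of 8.05 to 9.16, lie below the others, and in miR-30e they lie below all MMT libraries.

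The seed relative miR-384-5p, made from an X-linked hairpin and known for a role in long-term potentiation in rodent hippocampal neurons, was at 753, 561 and 808 CPM in MMT, 604, 564 and 800.1 CPM in MnCl2 and 958, 701 and 513 CPM in control libraries. Its groups overlapped, with log2 fold changes of -0.037 (SE 0.23, edgeR adjusted p = 1) for MMT and -0.15 (SE 0.23, edgeR adjusted p = 0.896) for MnCl2 against control. Its other arm, miR-384-3p, was at 1528, 1126 and 1921 CPM in MMT, 1927, 1257 and 1425 in MnCl2 and 1613, 1478 and 1071 in control libraries, which overlapped as well.

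Among 605 other miRNAs tested, those whose pattern over the 9 libraries was most like that of the summed miR-30 5p arms were miR-9a-3p, miR-148b-3p, miR-136-3p, miR-9b-3p and miR-9a-5p. Likeness was the root mean square difference of mean-centred log2 CPM, which was 0.0706 for miR-9a-3p, 0.0828 for miR-148b-3p, 0.0882 for miR-136-3p, 0.0902 for miR-9b-3p and 0.0906 for miR-9a-5p. The median over the 605 was 0.492, and the summed 5p arms themselves varied by 0.223 around their mean. All 5 averaged above 1000 CPM, from 1457 CPM for miR-148b-3p to 27323 for miR-9b-3p. miR-9a-5p stood at 27318 CPM and shares at least 16 bases with the opposite strand of miR-9b-3p, so reads of these entries cannot be told apart if both strands were counted. Their levels were nearly the same, at 21879 to 32181 CPM for miR-9a-5p and 21864 to 32141 CPM for miR-9b-3p. These entries may therefore not be separate signals. No miR-30 member shares as much with the opposite strand of any listed entry.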

How the data were processed

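Per the labels' protocols, TRIzol was used on striatum, the QIAseq miRNA kit for library construction, and a 15 to 45 nucleotide band was cut from a gel. The submitters' processing notes name Trimmomatic and build rn6; for the aligner, mismatches, multi-mapping, strand and use of molecular identifiers these sources give nothing. The authors deposited raw counts, 1 column per library, without normalization. Groups came from sample titles. No 2 libraries held identical counts.

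Members and lists were chosen with earlier results of these data known. Of all 1759 entries, the 1113 past filterByExpr entered 1 quasi-likelihood fit over 9 libraries with edgeR 4.0.16 and R 4.3.3 (two-sided, TMM, robust). It was Benjamini-Hochberg adjusted over 1113 entries at 0.05, and tested on simulated data. The log2 total count was tested in a second such fit. The arm balance used 0.5 added to each count, and likeness 0.5 CPM. Named beyond the members were entries of the same seed, host genes and the 5 miRNAs most like the summed 5p arms; fold changes were given singly for 5p members and the lowest p. Alternatives were DESeq2 1.42.0, other scalings and filters, 2 groups alone, miRNAs alone, no robust weights, the total as covariate, a replicate block and each library left out. Host genes and sequences came from RefSeq (GRCr8).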

Additional observations from a re-analysis of the deposited data

How the results depend on the processing

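In the 3 group comparisons 0 members were called under every one of 19 alternatives, DESeq2 and each left-out library included. The number of members that moved with the total count was 5, but 1 with total-count scaling and 2 with the replicate number as a block. It was 7 with RLE scaling or without a filter, where the 3p arms miR-30a-3p and miR-30e-3p were called as well. With 1 library left out it was 0 to 7 (0 without control 1, 2 without control 3). The cause of this movement with the total was not tested. Same-numbered libraries did not deviate together (correlations -0.67 to 0.49), so the numbers are not taken as pairs, and the block changed no other call. A minimum of 10 CPM in 3 libraries kept the same number of entries as the usual filter.

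Over 12 alternatives the summed 5p arms changed sign in 3 for MMT against control (-0.067 to 0.27), in 2 for MnCl2 against control (-0.30, with miRNAs scaled alone, to 0.17) and in 1 for MMT against MnCl2 (-0.035 to 0.30). Over 10 alternatives the arm balance kept its sign for miR-30a and miR-30e in each comparison. Where their groups did not overlap, leaving out a library could not change the sign, nor could leaving out 1 of the group not compared. The other hairpins changed sign in at least 1 comparison, most often miR-30c in MnCl2 against control, in 4 (-0.38 to 0.20). The share of miR-30e-5p, MMT less control, was 0.623 to 1.997 points with 1 library left out, an alternative chosen after seeing the data. Single fold changes, none called, changed sign in several settings. With miRNAs alone, MMT against control became -0.084 (miR-30a-5p), -0.10 (miR-30b-5p), -0.11 (miR-30c-5p), -0.10 (miR-30d-5p) and -0.12 (miR-30e-3p), MnCl2 against control -0.17 (miR-30b-5p), -0.092 (miR-30e-3p) and -0.25 (miR-30e-5p), and MMT against MnCl2 0.070 (miR-30b-5p). Without a filter, miR-30b-5p gave 0.023 for MMT against MnCl2 and -0.0048 for MnCl2 against control, miR-30d-5p gave -0.012 for MMT and miR-30e-5p -0.065 for MnCl2 against control. With total-count scaling, miR-30c-5p gave -0.0083 (MMT against MnCl2) and 0.0090 (MnCl2 against control), and miR-30e-3p -0.0096 (MMT against control). With 2 groups alone, miR-30b-5p gave 0.0064 (MMT against MnCl2), miR-30c-5p 0.0066 (MnCl2 against control) and miR-30e-3p -0.0036 (MMT against control). With the total as covariate, miR-30c-5p gave -0.13 (MMT against MnCl2) and 0.13 (MnCl2 against control), and miR-30d-5p 0.040 (MnCl2 against control). miR-30e-5p gave -0.022 for MnCl2 against control with DESeq2 and with RLE.

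With 1 library left out, MMT against control ran from -0.083 to 0.30 (miR-30a-5p), -0.21 to 0.23 (miR-30b-5p), -0.15 to 0.21 (miR-30c-5p), -0.17 to 0.52 (miR-30d-5p) and -0.071 to 0.16 (miR-30e-3p). MnCl2 against control ran from -0.34 to 0.10 (miR-30a-5p), -0.14 to 0.28 (miR-30b-5p), -0.24 to 0.17 (miR-30c-5p), -0.46 to 0.28 (miR-30d-5p) and -0.17 to 0.16 (miR-30e-5p). MMT against MnCl2 ran from -0.31 to 0.20 (miR-30b-5p), -0.14 to 0.27 (miR-30c-5p) and -0.27 to 0.030 (miR-30e-3p). The coefficient of the total ran from -0.83 to 0.088 for miR-30c-1-3p and from -0.26 to 0.10 for miR-30c-2-3p, which rest on few counts.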

Other observations

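Chosen after the values were seen, the share of miR-30b-5p and miR-30c-5p together in the summed 5p counts differed between libraries of 1 group. It was 41.5%, 40.7% and 45.7% in MMT, 47.6%, 46.8% and 42.4% in MnCl2 and 43.8%, 45.7% and 43.2% in control libraries. The 3 libraries with over 1000 CPM of the choroid plexus miRNA miR-204-5p (MnCl2 1, MMT 3 and control 2) were among the 4 with the highest share. MnCl2 2, with 224 CPM of miR-204-5p, was the other. The listed choroid plexus marker miR-211-5p did not follow miR-204-5p, at 26.2 CPM in MnCl2 1, 13.5 in MMT 3, 18.6 in control 2 and 19.5 in MnCl2 2. MnCl2 1 also held the highest sum of endothelium and smooth muscle markers, 30751 CPM, against 14592 to 20579 in control libraries. The same sum was 15781 CPM in MnCl2 2. The parts of choroid plexus and of other tissue RNA in this share were not tested.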
